A study of Mus musculus with 2 samples.

Results

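The proteasome is the cell's main machine for breaking down ubiquitin-tagged proteins. Its 20S core is a barrel of alpha rings around beta rings, and the beta subunits Psmb5, Psmb6 and Psmb7 carry the cutting sites. A 19S cap of ATPases (Psmc genes) and non-ATPase subunits (Psmd genes) recognises, unfolds and feeds in the substrates. Interferon, above all interferon gamma, induces the replacement catalytic subunits Psmb8, Psmb9 and Psmb10, which form the immunoproteasome, and the PA28 activator genes Psme1 and Psme2. In macrophages these forms are known for making peptides that are displayed on MHC class I molecules.

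The proteasome genes described here are the 50 of 16463 genes in the deposited table whose symbol is Psm, a letter from a to g, digits and optional trailing letters. The choice uses the symbol alone. Of these, 49 had at least 20 estimated counts in 1 library, and the exception was Psma8, a testis-enriched alpha subunit, with 12 counts in WT and 7 in TKO. The induced set was Psmb8, Psmb9, Psmb10, Psme1 and Psme2, and the other 45 genes, of which 44 passed the count minimum, are called constitutive below. That name is loose for 4 of them: Psma8, Psmb11, a thymic beta subunit, Psme2b, a near copy of Psme2, and Psmc3ip, a recombination factor that shares only the symbol.

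Messenger RNA was measured in unstimulated macrophages grown for 5 days from mouse bone marrow with 10% serum and 10% L929 supernatant, the source of macrophage colony-stimulating factor. Both mouse groups are labelled C57BL/6J and carry Lyz2-Cre, a Cre recombinase gene placed at lysozyme M, which is active in myeloid cells. WT has Lyz2-Cre alone, and TKO is mir-106a~363-/- mir-106b~25-/- with mir-17~92flox/flox in addition, so 2 microRNA clusters are absent from the whole animal and the third is removed only where Cre acts. The labels used here state no age, sex or number of mice per culture. Each genotype had 1 library, with 10877915 counts in WT and 10656455 in TKO, so no test was run, and every interval covers counting error only, not the spread between mice or cultures.

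All 9 macrophage markers fixed for the check were detected in both libraries, Csf1r at 975 and 893 FPKM and Adgre1 at 286 and 207 FPKM in WT and TKO. Of the 9, 4 had a log2 ratio of TKO over WT above 0 and 5 below. The ratios ran from -0.43 for Adgre1 to 0.68 for Fcgr1. FPKM is the deposited level, scaled by gene length and library depth. Markers of other cells were not equal: 12 fibroblast and stromal genes summed to 124 FPKM in WT and 41.7 in TKO. Col1a1, the highest of them in WT, was at 43.9 FPKM in WT and 10.8 in TKO. The medians over all genes past the count minimum were 11.2 and 10.9 FPKM. Of the 11 fibroblast and stromal genes past that minimum, 7 were lower by 2-fold or more, against 2.3% of all genes past it. The 10 dendritic cell markers summed to 18.3 and 43.8 FPKM, and Cd209a was at 0 in TKO. All 5 past the count minimum lay above 0, and 4 were higher by 2-fold or more, against 2.43% of all genes past it. The 6 lymphocyte markers summed to 4.52 and 3.02 FPKM, with Ms4a1 and Ncr1 at 0 in WT, and the 6 neutrophil markers to 4.43 and 8.82 FPKM, with Elane at 0 in WT and Camp at 0 in TKO. Their part in the proteasome values was not tested, and in bulk RNA fewer cells of a type and less RNA per cell cannot be told apart.

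The induced set had the highest ratios of the family. Its 5 genes were 1.51-fold to 1.96-fold higher in TKO, with a median log2 ratio of 0.82, while the 44 constitutive genes had a median of 0.14 and ranged from -0.16 to 0.56. The lowest induced gene, Psme1 at 0.59, lay above the highest constitutive gene, Psmg4 at 0.56, although the interval of Psmg4 is wide. Psma4, at 0.55, has a narrower interval of 0.42 to 0.67, which overlaps that of Psme1, 0.49 to 0.70. Summed over genes, the induced set had 3514 counts in WT against 5703 in TKO, 1.70-fold more (log2 ratio 0.76, 95% interval 0.70 to 0.82). The constitutive genes had 39529 and 41192 counts, 1.09-fold more (log2 ratio 0.12, 0.10 to 0.15). Over all 11525 genes past the count minimum the median was 0.0042.

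No member reached a 2-fold difference with an interval that excludes 0 (0 higher and 0 lower of 49), a rule that took 2.43% of all tested genes as higher and 2.3% as lower. At 1.5-fold, 5 of 49 members were higher and none was lower, against 5.13% and 5.54% of all tested genes. Those 5 were exactly the induced set. Psme1 was the closest to that threshold and fell under it with any other scaling of the libraries, with log2 ratios of 0.55 to 0.58, and after correction for a trend on gene length described below, at 0.40.

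**Figure D1:**
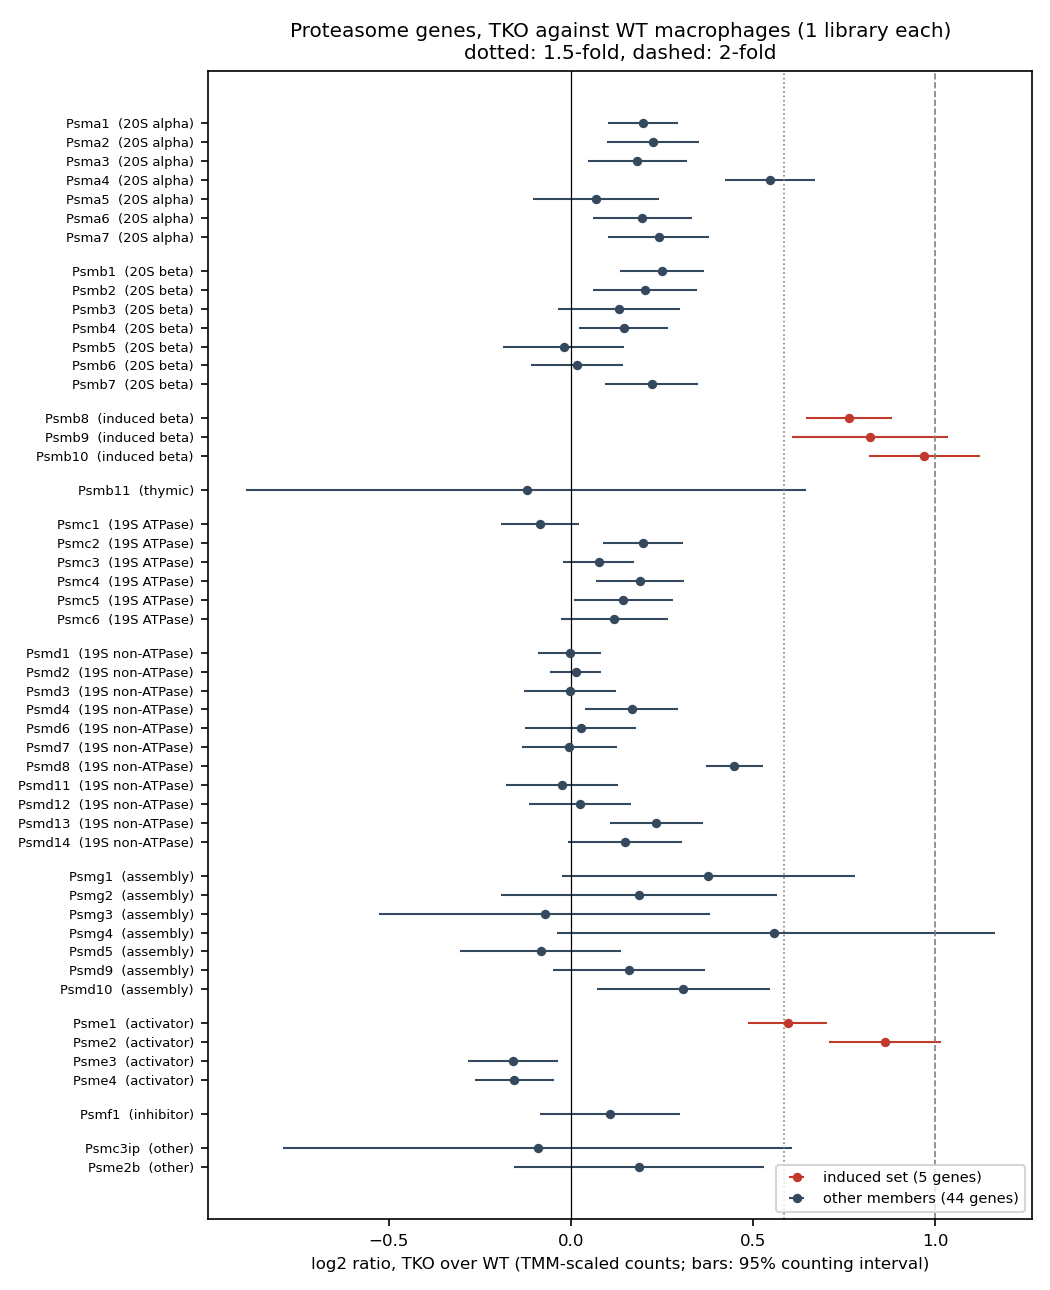
Log2 ratio of TKO over WT for the 49 proteasome genes past the count minimum, 1 point per gene with its 95% counting interval, ordered by role. The 5 induced genes (red) lie between 0.59 and 0.97, right of the dotted 1.5-fold line, and the 44 other genes between -0.16 and 0.56.

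Psmb8 is the induced subunit that takes the place of Psmb5, the chymotrypsin-like site. Psmb8 (Entrez 16913, chromosome 17, 34197721 to 34201454, GRCm38, 6 exons) had 942 counts (71.8 FPKM) in WT and 1527 counts (119 FPKM) in TKO, 1.70-fold more (log2 ratio 0.76, 0.64 to 0.88). The counts of Psmb5 (chromosome 14, 54614119 to 54618022, 3 exons) were 622 and 586, or 67.4 and 64.7 FPKM, a log2 ratio of -0.021 (-0.19 to 0.14). The pair was thus near balance in the WT library, with Psmb8 at 51.6% of their summed FPKM, and at 64.7% in the TKO library. The ratio of Psmb8 to Psmb5 was 1.72-fold higher in TKO (log2 difference 0.78, 0.58 to 0.98), a value that does not depend on how the libraries are scaled.

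Psmb9 takes the place of Psmb6, the caspase-like site. Psmb9 (Entrez 16912, chromosome 17, 34181987 to 34187764, 6 exons) had 290 counts (34.1 FPKM) in WT and 489 counts (58.6 FPKM) in TKO, 1.76-fold more (log2 ratio 0.82, 0.61 to 1.03). Psmb6 (chromosome 11, 70525367 to 70527858, 6 exons) had 1038 and 1003 counts, or 93.9 and 92.5 FPKM, a log2 ratio of 0.016 (-0.11 to 0.14). Psmb9 was the least abundant of the induced genes and stayed below its partner in both libraries, at 26.6% of the pair in WT and 38.8% in TKO. The ratio of Psmb9 to Psmb6 was 1.75-fold higher in TKO (log2 difference 0.80, 0.56 to 1.05).

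Psmb10 takes the place of Psmb7, the trypsin-like site, and had the highest ratio of all members. Psmb10 (Entrez 19171, chromosome 8, 105935735 to 105938444, 8 exons) had 548 counts (40.2 FPKM) in WT and 1025 counts (76.6 FPKM) in TKO, 1.96-fold more (log2 ratio 0.97, 0.82 to 1.12). Psmb7 (chromosome 2, 38588036 to 38644087, 8 exons) had 954 and 1063 counts, or 92.5 and 105 FPKM, a log2 ratio of 0.22 (0.09 to 0.35). Psmb7 was the one constitutive catalytic gene whose interval excluded 0, and at 0.023 with the length trend removed it lay close to other genes of its length. Psmb5 and Psmb6 then lay below the trend, at -0.23 (-0.40 to -0.07) and -0.17 (-0.30 to -0.05). These intervals cover counting error only, not the spread among genes of like length. Uncorrected, at -0.021 and 0.016, both lay above the 10th percentile of all tested genes near their length. That percentile was -0.094 and -0.17 in length groups with medians of 696 and 1039 bases. The share of Psmb10 in the pair was 30.3% in WT and 42.2% in TKO, and the ratio of Psmb10 to Psmb7 was 1.68-fold higher (log2 difference 0.75, 0.55 to 0.94).

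The 3 changes in pair balance, 1.68-fold, 1.72-fold and 1.75-fold, lay within one another's counting intervals. Summed over the catalytic subunits, induced transcripts made up 36.5% of the FPKM in WT and 49.2% in TKO.

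**Figure D2:**
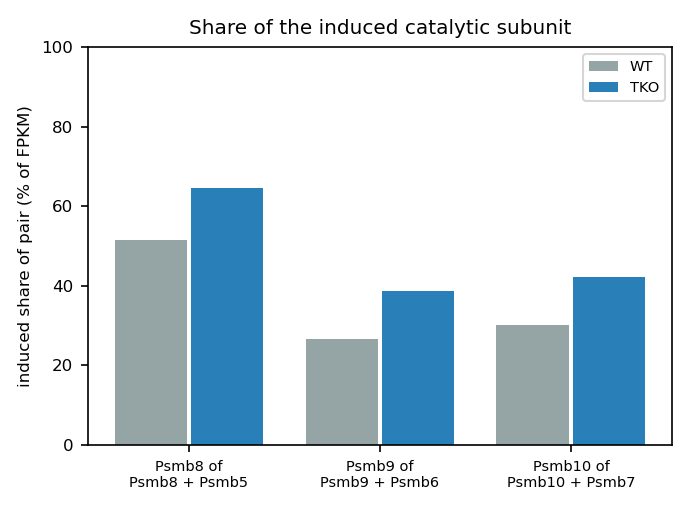
Share of the induced catalytic subunit in the summed FPKM of each pair, in percent, for the WT (grey) and TKO (blue) library. The share is higher in TKO in all 3 pairs, at 64.7%, 38.8% and 42.2% against 51.6%, 26.6% and 30.3%.

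The pairs are separate genes whose coding sequences differ enough to tell their reads apart. Psmb8 and Psmb5 were identical at 63.5% of aligned coding positions, Psmb9 and Psmb6 at 61.6% and Psmb10 and Psmb7 at 62.2%, and the longest stretch shared exactly was 18 bases. Some members do overlap other genes in the annotation. Exons at the starts of Psmb9 and of Tap1, a peptide transporter gene on the opposite strand, share 212 bases. Psmb8 shares 498 exon bases with the antisense transcript Gm20496, and Psmb7 shares 405 with Nek6. No source used here states whether the counting used strand, so reads from such stretches cannot be assigned to one gene with certainty.

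Psme1 and Psme2 encode the alpha and beta subunits of PA28, a ring that opens the ends of the 20S core. Psme1 (Entrez 19186, chromosome 14, 55578123 to 55581529, 11 exons) had 1188 counts (114 FPKM) in WT and 1714 counts (168 FPKM) in TKO, 1.51-fold more (log2 ratio 0.59, 0.49 to 0.70). Psme2 (Entrez 19188, chromosome 14, 55587441 to 55591113, 11 exons) had 546 counts (56.8 FPKM) in WT and 948 counts (101 FPKM) in TKO, 1.82-fold more (log2 ratio 0.86, 0.71 to 1.02). The 2 genes lie 5911 bases apart. Psme1 was the more abundant per length in both libraries, at 2.01 times the Psme2 level in WT and 1.67 times in TKO, a log2 difference of -0.27 (-0.45 to -0.08).

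Psme2b, a copy of Psme2, was counted apart, with 138 and 150 counts and a log2 ratio of 0.19 (-0.16 to 0.53). The 2 coding sequences are identical at 99.3% of positions and share a stretch of 311 bases, so the division of their reads is uncertain. Summed, they had 684 and 1098 counts, 1.68-fold more in TKO (log2 ratio 0.75, 0.61 to 0.89), a sum chosen after the values were seen.

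The other activators went the other way. Psme3, which encodes the nuclear PA28 gamma, had 1180 counts (41.3 FPKM) in WT and 1010 (36.0 FPKM) in TKO, a log2 ratio of -0.16 (-0.28 to -0.04). Psme4, which encodes the large activator PA200, had 1479 counts (20.8 FPKM) and 1269 (18.2 FPKM), a log2 ratio of -0.16 (-0.27 to -0.05). Of the 49 members, 22 had an interval above 0 and 2, these activators, one below, against 21.8% and 22.7% of all tested genes. They were at 1.12-fold and 1.11-fold lower in TKO. With the length trend removed Psme3 stayed lower at -0.20, while Psme4, the longest member, was at 0.093. The ratio of Psme1 to Psme3 was 1.69-fold higher in TKO (log2 difference 0.75, 0.59 to 0.91) and that of Psme2 to Psme3 2.03-fold (1.02, 0.83 to 1.21).

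**Figure D3:**
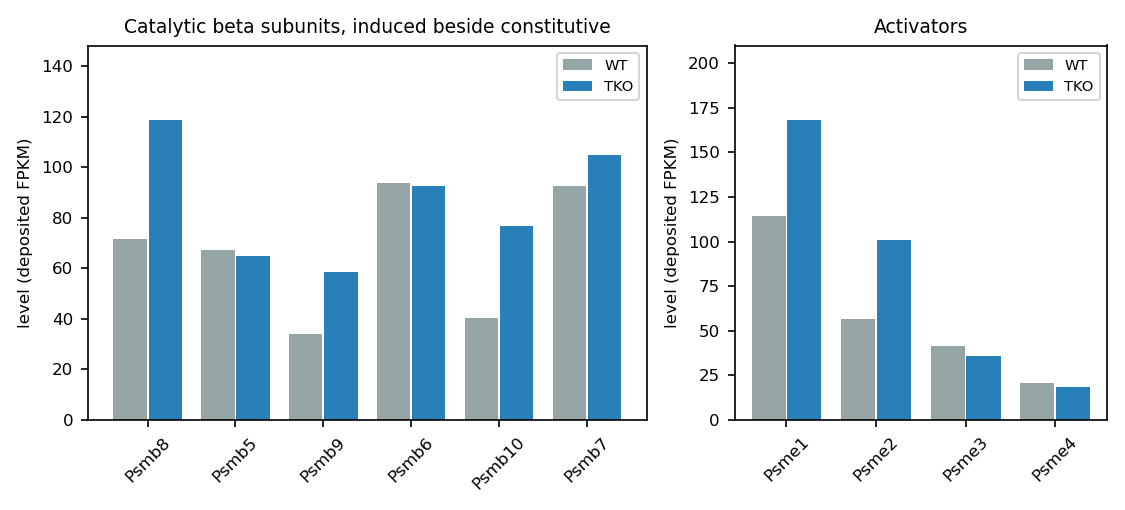
Deposited FPKM of the catalytic beta subunits, each induced gene beside its constitutive partner (left), and of the activators (right), with WT in grey and TKO in blue, 1 library each. Psmb8, Psmb9, Psmb10, Psme1 and Psme2 are higher in TKO, while Psmb5 and Psmb6 are level and Psme3 and Psme4 slightly lower.

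Psmb8 and Psmb9 lie within the MHC on chromosome 17, where Psmb9, Tap1, Psmb8 and Tap2 follow one another with Psmb8 and Psmb9 9956 bases apart. Psmb10, Psme1 and Psme2 lie on chromosomes 8 and 14. The log2 ratios inside the MHC, 0.76 and 0.82, fell between the lowest and highest outside it, 0.59 and 0.97. Tap1 had 805 and 1563 counts, giving a log2 ratio of 1.02 (0.90 to 1.15), and Tap2 749 and 993 counts, 0.47 (0.33 to 0.61), so the neighbours of the 2 genes bracketed them.

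Promoter windows, from 250 bases before to 50 after the start, were at hand for 42 of the 50 members (45 windows, RefSeq, GRCm38.p6). They were searched on both strands for letters of sites that interferon and stress factors are known to bind. The interferon-stimulated response element core (TTTC, any 2 letters, TTTC) was found in 5 of the 45 windows, against 3.44% of 32851 windows of all genes. They were those of Psmb3, Psmd4, Psmd9, Psme1 and Psmg4. The gamma-activated site TTCNNNGAA was found in 3 of the 45, those of Psmb8, Psmd2 and Psmg1, against 8.30% of all windows. The antioxidant response element core TGACNNNGC was in 6 of the 45, those of Psmb5, Psmb6, Psmc6, Psmd12, Psmd9 and Psme4, against 12.4%. The constitutive catalytic gene Psmb7 had no window and was not searched. The matches in the induced genes and in the constitutive catalytic genes are shown because they belong to the pairs compared above. They are given on the strand of the gene with the motif in capitals.
Psme1, response element core, chr14:55578493-55578522 (+): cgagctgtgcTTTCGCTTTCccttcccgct
Psmb8, gamma-activated site, chr17:34198088-34198116 (+): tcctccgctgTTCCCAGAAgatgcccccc
Psmb5, antioxidant core, chr14:54618024-54618052 (-): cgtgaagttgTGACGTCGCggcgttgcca
Psmb6, antioxidant core, chr11:70525338-70525366 (+): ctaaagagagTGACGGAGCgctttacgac
Of the 5 induced genes, 1 held the first motif and 1 the second. The windows use RefSeq starts, which can differ from the gene limits given above. The Psme1 and Psmb8 matches lie inside those limits, downstream of the starts given there. A match describes letters only, and a window without one says nothing of the factor.

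The 20S alpha subunits form the outer rings and gate of the core. All 7 ring genes, Psma1 to Psma7, had a log2 ratio above 0, from 0.068 for Psma5 to 0.55 for Psma4, with a median of 0.20, and 6 of 7 intervals lay above 0, against 21.8% of all tested genes. Psma4 had 925 counts (78.9 FPKM) in WT and 1291 (112 FPKM) in TKO, 1.46-fold more (log2 ratio 0.55, 0.42 to 0.67), and was the constitutive gene nearest to the induced set among those with a narrow interval. It shares 114 exon bases with AY074887 on the opposite strand. Psma1 was the most abundant alpha gene, with 1671 and 1830 counts (124 and 138 FPKM). Psma3 was the lowest of the 7 per length, at 32.7 and 36.1 FPKM, and has the longest listed length of them, 2375 bases. By counts Psma5 was the lowest, with 553 and 554 against 845 and 916 for Psma3. With the length trend removed the alpha median was 0.030 with 6 of 7 genes above 0, Psma5 was at -0.10, and Psma4 stayed at 0.36.

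The structural beta subunits Psmb1 to Psmb4 had similar ratios. The log2 ratios ran from 0.13 for Psmb3 to 0.25 for Psmb1, and 3 of 4 intervals excluded 0. Psmb1, the most abundant, had 1171 counts (106 FPKM) in WT and 1330 (123 FPKM) in TKO. With the length trend removed these genes lay between -0.10 and 0.059, and Psmb2, Psmb3 and Psmb4 changed sign, to -0.0091, -0.10 and -0.057. Psmb11, the thymic subunit, was near the floor, with 33 and 29 counts (0.71 and 0.63 FPKM).

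The 19S ATPases, which unfold substrates, had a median log2 ratio of 0.13 over 6 genes. Psmc2 was highest, with 1265 and 1386 counts and a ratio of 0.20 (0.09 to 0.31), and Psmc1 lowest, with 1496 and 1348 counts and -0.08 (-0.19 to 0.02). Psmc3, the most abundant per length, had 95.8 and 98.4 FPKM. The intervals of Psmc2, Psmc4 and Psmc5 lay above 0, and with the length trend removed Psmc5 was at -0.020.

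The 19S non-ATPase genes had ratios near 0, with a median of 0.024 over 11 genes and 8 intervals that include 0. Psmd2, a scaffold of the cap, had 3371 and 3251 counts and a log2 ratio of 0.013 (-0.06 to 0.08), and Psmd1, the other scaffold, 2291 and 2183 counts and -0.0042 (-0.09 to 0.08). Both intervals are narrow and include 0. Psmd11 was lowest at -0.025. Psmd14, the deubiquitinase that strips ubiquitin from substrates, had 657 and 696 counts and 0.15 (-0.01 to 0.30), and the ubiquitin receptor Psmd4 967 and 1037 counts and 0.17 (0.04 to 0.29).

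Psmd8 was the exception in the cap. Per length it was the most abundant member of the whole family, with 2373 counts (144 FPKM) in WT and 3093 (191 FPKM) in TKO, 1.36-fold more (log2 ratio 0.45, 0.37 to 0.53). It stayed at 0.31 with the length trend removed, while the other 10 genes of its group lay between -0.14 and 0.10.

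Genes of assembly were expressed at lower levels, from 7.58 to 17.6 FPKM in WT, and their intervals were wide. Psmg4, a chaperone of the alpha ring, had 42 and 59 counts, giving a log2 ratio of 0.56 (-0.04 to 1.16), and Psmd5, a chaperone of the ATPase ring, 358 and 323 counts, -0.083 (-0.30 to 0.14). Psmd10, another ATPase chaperone and per length the most abundant of the group (17.6 and 21.1 FPKM), had 274 and 324 counts and was the one of 7 whose interval excluded 0, at 0.31 (0.07 to 0.54). Psmf1, which encodes the proteasome inhibitor PI31, had 440 and 453 counts and a ratio of 0.11 (-0.08 to 0.30). Psmc3ip, the recombination factor, had 39 and 35 counts.

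**Figure D4:**
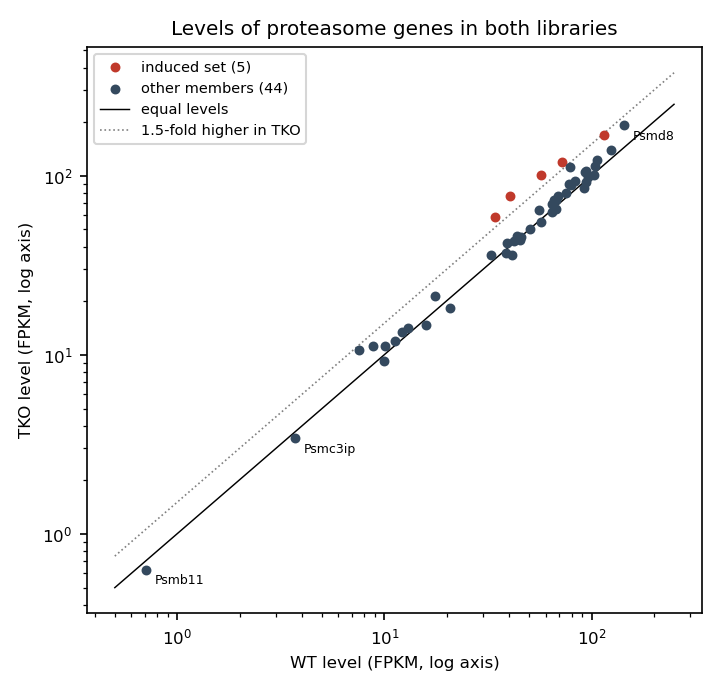
Level of each of the 49 members in WT (x axis) and TKO (y axis), both in FPKM on log axes, with lines for equal levels and for 1.5-fold more in TKO. Levels run from 0.71 to 144 FPKM in WT and from 0.63 to 191 in TKO, and the 5 induced genes (red) sit highest above the line of equal levels.

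Levels of the constitutive genes were similar in both libraries, with a Pearson correlation of 0.995 between log2 FPKM values over 44 genes. The wide range of levels, 0.71 to 144 FPKM in WT, favours a high value. This is a description over genes that share the same 2 libraries.

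Across the constitutive genes, 17 of 44 intervals lay above 0 and 2 below, against 21.8% and 22.7% of all tested genes. In these libraries the ratio depended on gene length: shorter genes had higher ratios in TKO, with a Spearman correlation of -0.45 over 11525 genes and -0.43 over the 44. Proteasome genes are short, with a median length of 1277 bases in the table against 2859 for all tested genes. With a lowess trend on length removed, the constitutive median was -0.00024, with 22 of 44 genes above 0. The induced set kept a median of 0.60, with its 5 genes between 0.40 and 0.80, and the distance between the medians was 0.60 in place of 0.68. The constitutive genes were thus centred on the ratio of other genes of their length, and all 5 induced genes lay above it.

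**Figure D5:**
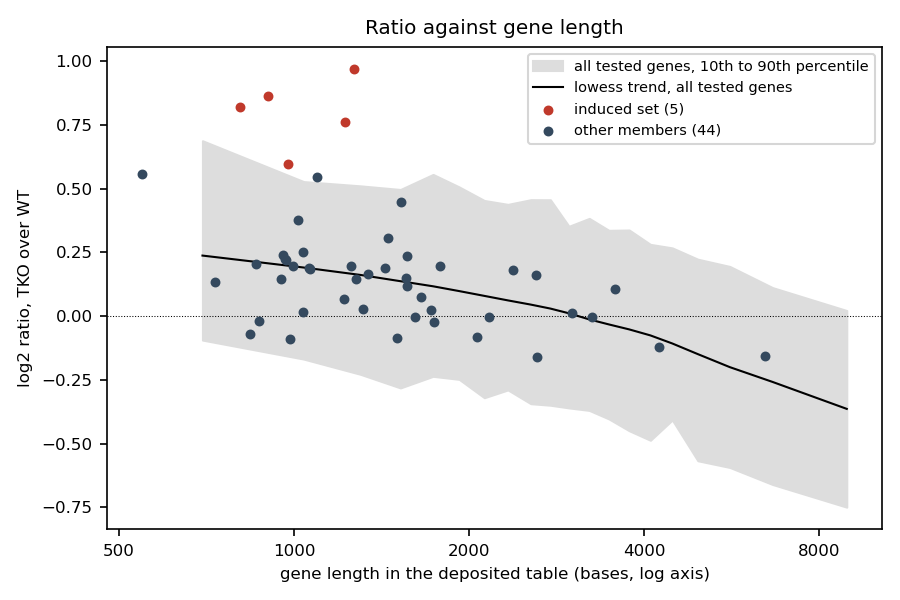
Log2 ratio of TKO over WT against gene length (bases, log axis) for the 49 members, over the 10th to 90th percentile range (grey) and lowess trend (line) of all tested genes. The 44 constitutive genes scatter on both sides of the trend, and the 5 induced genes lie above it by 0.40 to 0.80.

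In the authors' deposited table, 15 of the 50 members were higher and 2 lower at an FDR below 0.05, against 10.8% and 15.6% of all 16463 genes. All 5 induced genes were among the higher, and the 2 lower were Psme3 and Psme4. That test compares the reads of 2 libraries, not the genotypes, and 713 of the deposited FDR values exceed 1, so they are not a usual adjusted p.

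Partners of the proteasome outside the symbol rule had small ratios. Of 16 measured, none was 1.5-fold higher or lower, 7 lay above 0, and the median was -0.032. AI314180, which encodes the 19S adaptor ECM29, had 1315 and 1048 counts, giving a log2 ratio of -0.26 (-0.38 to -0.14) that was -0.042 with the length trend removed, and the ubiquitin receptor gene Adrm1 had 891 and 1008 counts, 0.24 (0.11 to 0.38). Pomp, the maturation factor that is needed for both core types, had 1010 and 1107 counts (131 and 146 FPKM), 0.20 (0.07 to 0.32), or -0.033 with the length trend removed.

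Regulators differed among themselves. Among 15 genes, 1 was higher by 2-fold or more, against 2.43% of all tested genes: Stat2, a transcription factor of interferon signalling, had 870 and 2326 counts and was 2.80-fold higher (log2 ratio 1.48, 1.37 to 1.60). Irf1, a factor known to drive Psmb8, Psmb9 and Psmb10, had 548 and 810 counts, 1.55-fold more (0.63, 0.47 to 0.79), and Irf9 859 and 1420 counts (0.79, 0.67 to 0.92). Nlrc5, the transactivator of class I genes, had 529 and 673 counts (0.41, 0.25 to 0.58). Of the genes of the proteasome's own stress response, Nfe2l1 was level and Ddi2 lower. Nfe2l1, known to raise constitutive subunits when proteasome activity drops, had 2575 and 2402 counts and a log2 ratio of -0.035 (-0.12 to 0.05). Ddi2, the protease that activates its product, had 1604 and 1009 counts, giving a log2 ratio of -0.60 (-0.72 to -0.49). Others on the list went both ways: Nfe2l2 was at 0.14 (0.06 to 0.21), Ngly1 at 0.18 (-0.07 to 0.44) and Vcp at -0.056 (-0.108 to -0.005). The remaining interferon regulators did too: Ifngr2 was at 0.21 (0.12 to 0.30) and Irf2 at 0.16 (0.05 to 0.27). Below 0 were Jak2 at -0.17 (-0.34 to -0.007), Jak1 at -0.067 (-0.14 to 0.007), Ifngr1 at -0.028 (-0.13 to 0.08) and Irf8 at -0.023 (-0.10 to 0.06). Of the 15 regulators, 8 lay above 0 and 7 below.

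Downstream steps of peptide display were partly higher. Of 15 genes of the peptide pathway, Tap1 alone was higher by 2-fold, a call it lost with library totals (0.99) or FPKM (0.98), and 4 genes were higher by 1.5-fold (2.43% and 5.13% of all tested genes), among them Tapbp, tapasin, with 3456 and 5981 counts (0.86, 0.80 to 0.92) and B2m, the class I light chain, with 24911 and 42707 counts (0.84, 0.82 to 0.87). The cytosolic peptidase gene Tpp2 had 2225 and 1830 counts (-0.22, -0.31 to -0.13). Among 8 ubiquitin and ubiquitin-like genes, 3 were higher by 2-fold, against 2.43% of all tested genes: Usp18 with 159 and 660 counts (2.12, 1.87 to 2.38), Isg15 with 198 and 773 (2.03, 1.80 to 2.26) and Ube2l6 with 535 and 1419 (1.47, 1.33 to 1.62). They encode the ubiquitin-like protein ISG15, its conjugating enzyme and its protease. The ubiquitin genes Ubb and Rps27a had log2 ratios of 0.32 and 0.20, and with the length trend removed they were at 0.17 and -0.036. Only Uba6 of the 8 lay below 0, with 492 and 359 counts (-0.39, -0.59 to -0.19), or -0.23 with the length trend removed.

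The clusters named in the TKO genotype encode microRNAs of 4 seed families. One member of each is shown, from RefSeq, with the seed (bases 2 to 8) in capitals, because these letters define the sites searched for.
miR-17-5p: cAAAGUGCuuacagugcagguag
miR-18a-5p: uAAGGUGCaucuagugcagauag
miR-19a-3p: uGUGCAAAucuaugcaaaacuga
miR-92a-3p: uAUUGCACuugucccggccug
The letters complementary to the seed were looked up in each gene's longest 3' UTR in GENCODE M21, for all 49 members past the count minimum. A site of any family was found in 5 of 49, against 34.2% of 10769 genes searched, and the median 3' UTR had 294 bases in the members and 1221 in all genes. Psmf1 held a miR-17 site, Psmd11 and Psmd13 a miR-18 site, and Psma2 and Psmb11 a miR-19 site. The miR-92 site was in none, and the induced set held no site of any family. The 5 genes with a site had log2 ratios from -0.12 to 0.23, inside the range of the constitutive genes without one. Mature microRNAs were not measured.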

How the data were processed

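Libraries of polyadenylated RNA, 1 per genotype, were compared. Per the submitters' processing notes, the tools were RSEM 1.2.12, HISAT2 2.0.4 and Bowtie2 2.2.5, without stated roles, and the build was mm10; no source used here states the annotation or filters. Expected counts, as deposited, are RSEM-style estimates that were not whole for 21.3% of genes in WT and 21.1% in TKO. The deposited FPKM values are scaled for length and depth by the authors, with 0.01 listed for 0 counts. The authors' log2 ratio is that of TKO over WT FPKM. No source used here states the test behind the authors' p-value. The authors' FDR is a deposited score of unstated origin, and 713 of its values are above 1. There were 0 unmatched columns of sample values.

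Counts were rounded and scaled with TMM factors (edgeR 4.0.16, R 4.3.3; 1.01 in WT and 0.988 in TKO). Intervals are exact conditional binomial at 95%, and for ratios of pairs come from the sum of reciprocal counts. A gene was called at an absolute log2 ratio of 1, an interval excluding 0 and at least 20 counts in 1 library. Reads are not independent molecules, so intervals cover counting error only. Alternatives were library totals, DESeq2 1.42.0 size factors, FPKM ratios, FPKM plus 1, no count minimum or 100, 1.5-fold and 4-fold thresholds, a 99.9% interval, removal of the lowess trend on length (span 0.3; statsmodels 0.14.6) and members without the 4 loosely named genes. Coordinates are those of GENCODE M21 (GRCm38, the same assembly as mm10), and coding sequences were aligned with Biopython 1.88. A comparison of proteins was planned, and protein sequences were not used here. Named were the induced set, their partners, the highest, lowest and most abundant member of each role, and the leading genes of each pathway list; further members were named to describe their role. Some genes of the lists are not reported here. Members, lists and rules were chosen with earlier results of these data known.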

Additional observations from a re-analysis of the deposited data

How the results depend on the processing

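No paired analysis was possible because each genotype had 1 library, and for the same reason no library could be left out. The count of members higher by 2-fold was 0 and became 5 at a 1.5-fold threshold; the other alternatives left it at 0, and the count of lower members was 0 in all. At 1.5-fold, a threshold whose other settings were added after seeing the data, 4 members in place of 5 were higher with library totals, DESeq2 size factors, FPKM ratios, FPKM plus 1 or the length trend removed, the loss each time being Psme1. Removing the length trend moved the induced median from 0.82 to 0.60 and turned the constitutive median from 0.14 to -0.00024; this follows from the short length of these genes. Among genes whose interval excluded 0, it also reversed the ratios of Psmb2 (-0.0091), Psmb4 (-0.057), Psmc5 (-0.020), Psme4 (0.093), Shfm1 (-0.080), Pomp (-0.033) and Rps27a (-0.036). Across the other alternatives the induced median ranged from 0.76 to 0.82 and the distance between the induced and constitutive medians from 0.66 to 0.68. The changes in pair balance kept their direction with FPKM and with the length trend removed (0.77 to 0.82). The lowest counts limit the precision most, as for Psmg4 with 42 and 59 counts (-0.04 to 1.16).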
